A study of Homo sapiens with 24 samples.

Results

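The messenger RNAs described here encode 43 parts of the machinery that degrades messenger RNA in human cells, among the 58676 genes counted. The members were listed by name from the complexes their proteins belong to. They comprise 3 cap and 6 ring subunits of the RNA exosome, 4 nucleases of the exosome family, 7 scaffold and module subunits of the CCR4-NOT complex, 7 deadenylases and their partner subunits, 5 decapping factors, the 5′ to 3′ exonucleases XRN1 and XRN2, and 9 factors of nonsense-mediated decay. All 43 had at least 1 CPM (reads per 1000000 reads in genes) in all 24 libraries and were therefore among the 13136 genes tested.

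RNA was sequenced from HepG2, an established human liver cancer line, after transfection with a negative control siRNA (siControl) or with pre-designed siRNA against IGF2BP1, IGF2BP2 or IGF2BP3, a family of RNA-binding proteins that alter the stability of the transcripts they bind. Actinomycin D, which blocks transcription, was given at 5 µg/ml for 0, 3 or 6 h before collection, 48 h after re-seeding, so that the fall of a transcript with time reads out its decay. The 4 siRNA conditions and 3 time points make 12 groups of 2 libraries. Every group shares the cell line and the transfection, depletion is transient and partial, and the number of siRNAs used per target is not given in the sources used here. Cells of a transfected plate were divided over the plates of the time course, and METTL1 knockdown libraries were not analysed here. The labels do not say that the replicates came from separate cultures, although the study calls them independent, so p-values measure the spread between these samples, which may be technical.

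Messenger RNA decay normally begins at the poly(A) tail. PAN2-PAN3 and the CCR4-NOT complex shorten the tail, DCP2 with its activators removes the cap, and the body is then degraded from the 5′ end by XRN1 or from the 3′ end by the exosome, while XRN2 acts mainly in the nucleus. The UPF and SMG proteins recognise transcripts whose translation stops too early and feed them into the same enzymes. Factors of nonsense-mediated decay are also known to include targets of that pathway, so that the machinery degrades some of its own messages.

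Depth ranged from 31843248 to 74252042 reads in genes per library, and the ERCC synthetic RNA added as a reference gave 50889 to 119088 reads. All 8 liver markers were detected in every library, with TTR the lowest at 38.6 to 77.6 CPM. The leukocyte markers PTPRC and CD3E did not exceed 0.018 and 0.025 CPM, while CD14 lay at 0.82 to 2.11 CPM. The endothelial markers PECAM1, CDH5 and VWF did not exceed 1.38, 1.19 and 1.01 CPM, and of the fibroblast markers COL1A2 and COL1A1 did not exceed 0.025 and 0.343 CPM while PDGFRB lay at 4.70 to 13.0 CPM. Averaged over the time course, the matching siRNA left 17.7% of IGF2BP1, 22.96% of IGF2BP2 and 28.96% of IGF2BP3 mRNA relative to siControl. In each group the counts of the 2 libraries lay farther apart than counting noise allows, by a chi-square of 3.17 to 7.83 for each degree of freedom.

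The members were mostly moderately expressed. Their median level was 42.4 CPM over all libraries, with a range of 8.61 to 721.6, against a median of 19.1 CPM for all genes tested. Per kilobase of mRNA in siControl cells at 0 h, XRN2 had the highest level at 104.6 CPM per kb (SD 0.979, n = 2). It was followed by CNOT1, the scaffold of the CCR4-NOT complex, at 76.1 CPM per kb and by UPF3A, a link between exon junctions and UPF2, at 56.7. XRN1, the cytoplasmic 5′ to 3′ exonuclease, had the lowest level of the 43 at 2.46 CPM per kb (SD 0.00782), so the nuclear and the cytoplasmic enzyme of this pair were at opposite ends. XRN2 and CNOT1 remained first and second, and XRN1 last, when the length of all annotated exons replaced that of the mRNA, but other ranks moved, with EXOSC8, a ring subunit, falling from rank 10 to rank 42.

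After transcription was blocked, 41 of the 43 members fell in siControl cells when scaled to the ERCC reads (edgeR quasi-likelihood test, adjusted p under 0.05), where 80.3% of all genes tested fell and 0.251% rose. The median change of the members over 6 h was −1.15 on the log2 scale, against −0.88 for all genes. The remaining 2 were EXOSC5, a ring subunit of the exosome (−0.25, SE 0.13), and PAN2, the catalytic subunit of the PAN2-PAN3 deadenylase (−0.15, SE 0.09). ERCC RNA was added per amount of total RNA, so these are levels within total RNA, and in bulk RNA fewer cells and less RNA per cell cannot be told apart.

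To compare members without the spike-in, loss was also measured relative to the typical transcript, as the slope under TMM scaling averaged over the 4 conditions. By this measure 25 members fell faster and 12 slower than the typical transcript, while 6 did not pass the test. Among all genes tested 44.6% were called faster and 42.4% slower, and the median was −0.28 for the members and −0.02 for all genes. The spread within the machinery was wide, from −4.27 for SMG8 to +0.79 for PAN2. It was also wide within single complexes, as the plot of loss by member shows.

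**Figure D1:**
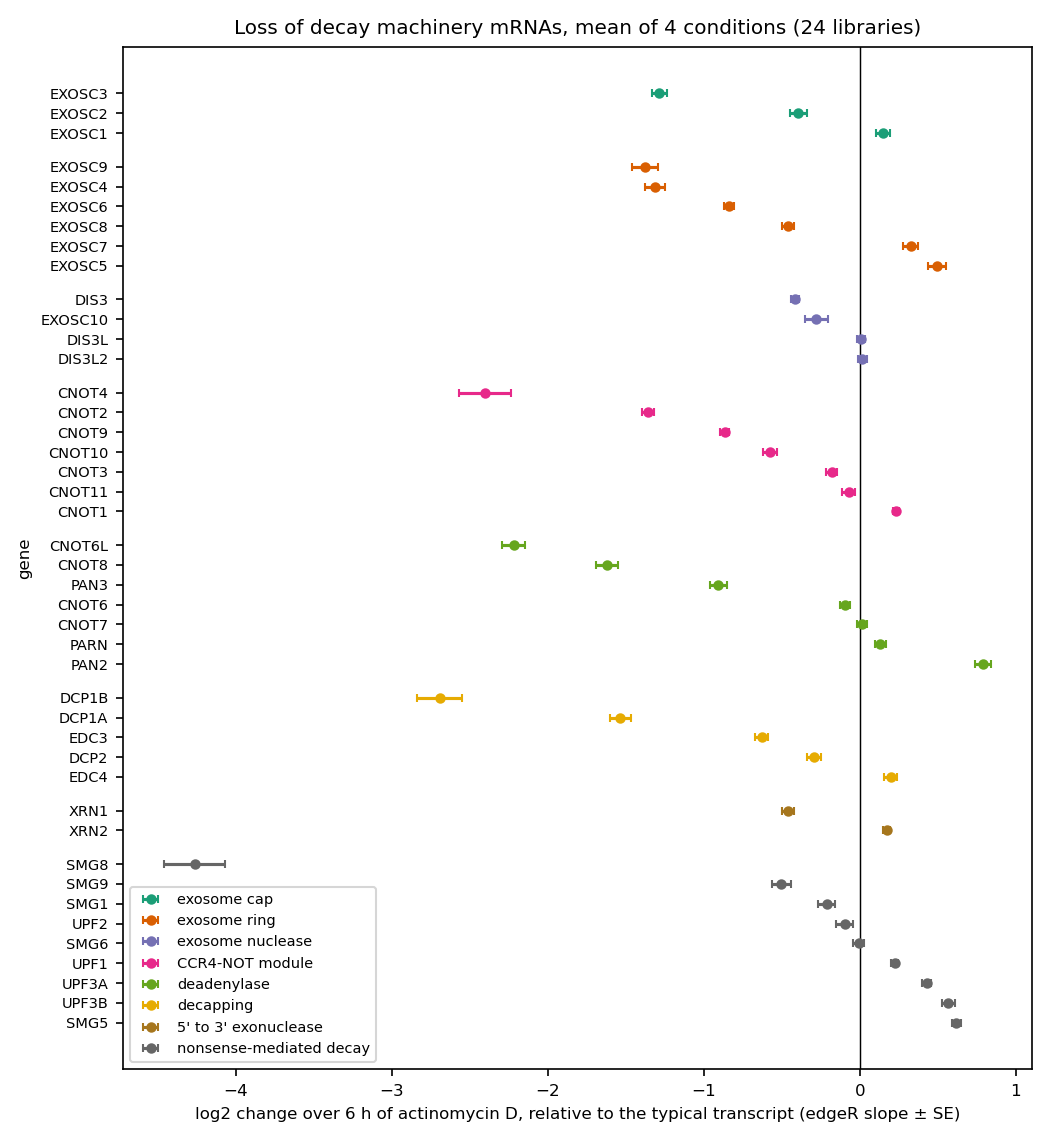
Loss of each of the 43 mRNAs over 6 h of actinomycin D. The horizontal axis is the log2 change relative to the typical transcript (edgeR slope with TMM scaling, mean of 4 conditions, 24 libraries), bars are standard errors, and colours mark the complex. SMG8 lies farthest left at −4.27 and PAN2 farthest right at 0.79, and fast and slow members occur within the same complex.

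The messages of the exosome subunits and related nucleases were split by gene. Of the cap subunits, which line the entry of the RNA channel, EXOSC3 was lost fast (−1.28, SE 0.05), EXOSC2 moderately (−0.39, SE 0.05) and EXOSC1 slower than the typical transcript (+0.15). In the ring that forms the channel, 4 of 6 were faster, among them EXOSC9 (−1.38, SE 0.08) and EXOSC4 (−1.31, SE 0.06), and 2 were slower, EXOSC5 (+0.49, SE 0.06) and EXOSC7 (+0.32, SE 0.05). Of the nucleases of the exosome family, not all of which need be subunits, EXOSC10 (−0.28) and DIS3 (−0.42) were faster. DIS3L and DIS3L2 did not pass the test at 0.01 and 0.02. In absolute terms, siControl replicates kept 53.4% and 45.5% of EXOSC3 mRNA at 3 h and 23.8% and 19.7% at 6 h. They kept 88.5% and 82.2% of EXOSC7 at 3 h and 68.4% and 67.2% at 6 h. For EXOSC2, which the study examined as a candidate partner of the IGF2BP proteins, 73.9% and 64.6% remained at 3 h and 42.95% and 38.5% at 6 h. The EXOSC2 replicates thus lay between those of EXOSC3 and EXOSC7 at both times. EXOSC3 has 2 pseudogene copies and DIS3L2 has 1. EXOSC3, EXOSC4, EXOSC7 and DIS3L2 overlap other genes on the same strand, so the counts of these members are uncertain to that extent.

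The CCR4-NOT scaffold and module messages were spread widely, with 1 of 7 slower, 5 faster and 1 not passing the test. CNOT1 was lost slower than the typical transcript (+0.23), whereas CNOT4, an E3 ubiquitin ligase that associates with the complex, was among the fastest members (−2.40, SE 0.16, percentile 6.34 of all genes, low percentiles being the fastest). Of the siControl CNOT4 mRNA, 15.4% and 18.6% remained at 3 h and 11.4% and 9.47% at 6 h. CNOT4 has 1 pseudogene copy, whose reads its counts can include, and its smallest count was 91 reads. CNOT2, which joins the scaffold to CNOT3, fell by 1.36 relative to the typical transcript, and CNOT9, CNOT10 and CNOT3 were also called faster, while CNOT11 did not pass the test at −0.07. Among deadenylases, CNOT6L (−2.22, SE 0.07) and CNOT8 (−1.62, SE 0.07) were fast, and PAN3, the regulatory partner of PAN2, was faster at −0.91. PAN2 itself was the slowest of all members (+0.79, SE 0.05, percentile 93.0), and PARN, a poly(A)-specific ribonuclease, was slower at +0.13. In siControl cells PAN2 mRNA was at 101.7% and 96.2% of its 0 h mean at 3 h and at 93.4% and 86.5% at 6 h. At 6 h the values were 111.6% and 117.4% with siIGF2BP1, 108.5% and 121.7% with siIGF2BP2, and 105.9% and 101.4% with siIGF2BP3, all above the 0 h mean. The 2 subunits of the same deadenylase therefore differed in direction relative to the typical transcript.

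The decapping factors were mostly short lived. DCP1B (−2.69, SE 0.14) and DCP1A (−1.54, SE 0.07), paralogous activators of DCP2, EDC3 (−0.63), an enhancer of decapping, and DCP2 itself (−0.29) were faster than the typical transcript. EDC4, the scaffold of the decapping complex, was slower (+0.20). Of the siControl DCP1B mRNA, 17.6% and 24.3% remained at 3 h and 10.3% and 7.12% at 6 h, so that the replicates of this low-level transcript differed more than those of SMG8 below. The exonucleases went in opposite directions, XRN1 faster (−0.46) and XRN2 slower (+0.17, SE 0.02), with 62.8% and 59.4% of siControl XRN2 mRNA left at 6 h.

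Among the nonsense-mediated decay factors, SMG8, a subunit of the SMG1 kinase complex, was lost faster than any other member (−4.27, SE 0.19, percentile 0.959 of all genes). Of its mRNA in siControl cells, 9.34% and 9.07% remained at 3 h and 3.09% and 3.14% at 6 h, and the first-order half-lifetime was 1.01 h. SMG8 lies at chr17:59209400-59215239 on the plus strand of hg38 and overlaps another annotated gene on the same strand, so reads in the overlap cannot be assigned with certainty. Its smallest count was 55 reads, in a 6 h library. SMG9, the partner of SMG8 in that complex, was faster at −0.51, and SMG1, the kinase, fell by 0.21, although SMG1 has 7 pseudogene copies. In contrast, SMG5 (+0.62, SE 0.03), UPF3B (+0.57, SE 0.04), UPF3A (+0.43, SE 0.03) and UPF1 (+0.22), the helicase at the centre of the pathway, were slower. UPF2 and the endonuclease SMG6 did not pass the test at −0.10 and −0.01. Relative to the typical transcript, 4 of the 9 factors were thus slower and 3 faster.

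The time course was then asked whether loss was even. The change from 3 to 6 h minus that from 0 to 3 h, averaged over the conditions under TMM scaling, was positive in 12 members, whose level relative to the typical transcript changed more downward before 3 h than after it, and negative in 18, where the reverse held. A negative value does not require a fall, since EXOSC5 and EXOSC7 rose relative to the typical transcript and did so less after 3 h. Among all genes tested 21.6% were called positive and 31.2% negative. SMG8 (+1.51, SE 0.10), CNOT4 (+1.21, SE 0.11) and DCP1B (+1.00, SE 0.12) had the largest positive values, followed by DCP1A (+0.47), and with EDC3 and DCP2 this gave 4 of 5 decapping factors. SMG1 (+0.40), UPF2 (+0.39) and SMG9 (+0.34), named after their values were seen, were also positive, and 6 of the 9 nonsense-mediated decay factors were. All 6 ring subunits of the exosome were negative, with EXOSC9 lowest (−0.54, SE 0.05). EXOSC10, a nuclear exosome nuclease also named after its value was seen, followed at −0.51 (SE 0.04), and CNOT8 gave −0.37 (SE 0.07).

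The negative calls depended on the scaling. Under ERCC scaling, which moved the median of all genes from −0.06 to 0.08, 15 members were positive and 3 negative, with the shares of all genes not given here. The 3 were EXOSC9 (−0.41), EXOSC10 (−0.38) and CNOT8 (−0.24, edgeR adjusted p = 0.034), so that of the ring subunits only EXOSC9 kept a negative call. The calls for SMG8, CNOT4, DCP1B, DCP1A, SMG1, UPF2, SMG9, EXOSC9, EXOSC10 and CNOT8 held under all 29 alternatives. In siControl cells EXOSC9 mRNA stood at 57.6% and 52.2% at 3 h and at 20.8% and 19.9% at 6 h. EXOSC10 mRNA stood at 79.0% and 82.3% at 3 h and at 45.9% and 41.5% at 6 h. For both, the proportional loss between 3 and 6 h was larger than that before 3 h, whereas SMG8 had lost most of its mRNA by 3 h.

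**Figure D2:**
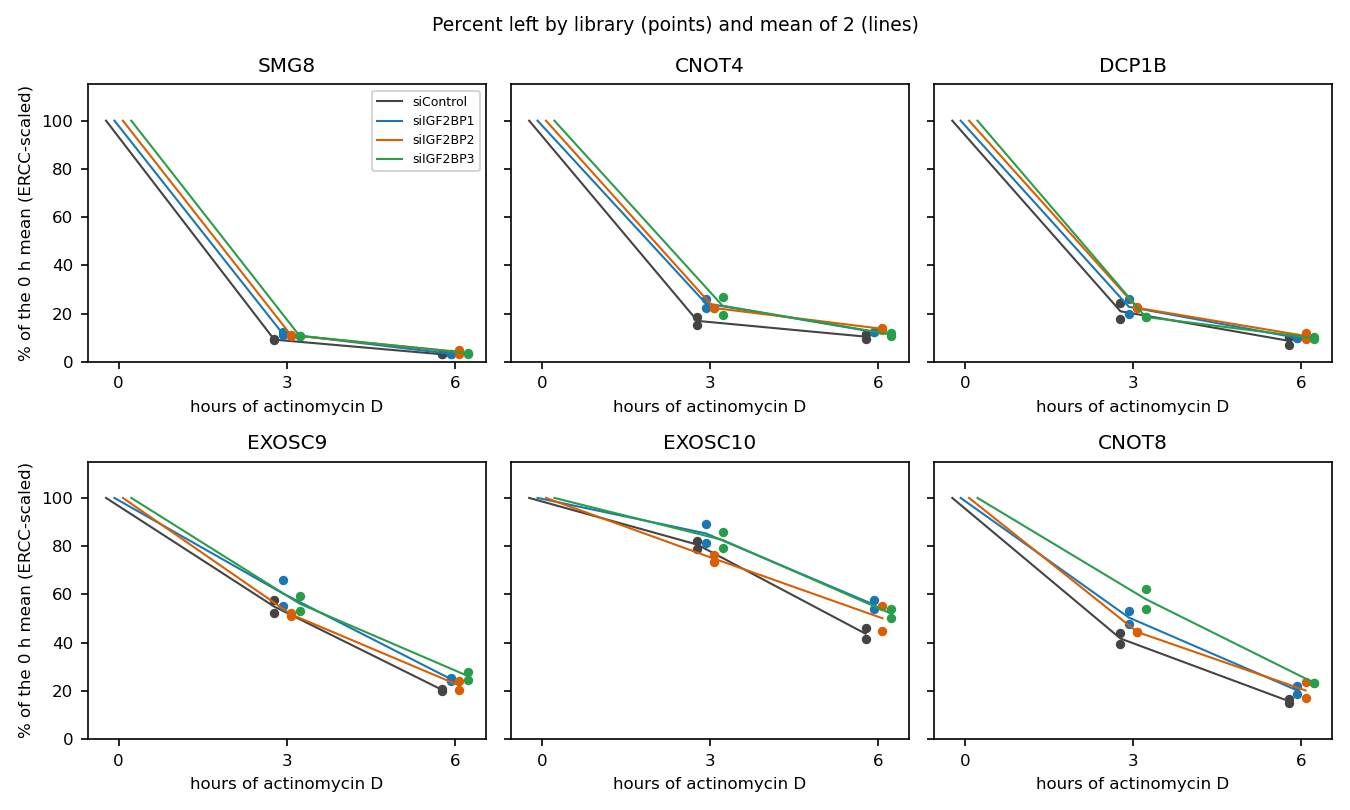
Percent of the 0 h mean left for 6 mRNAs, scaled to ERCC reads, against hours of actinomycin D. Points are libraries, lines join the means of 2, and colours mark the siRNA. SMG8, CNOT4 and DCP1B drop steeply by 3 h and flatten (siControl SMG8 9.34% and 9.07% at 3 h), whereas EXOSC10 stays near 79.0% and 82.3% at 3 h and falls to 45.9% and 41.5% at 6 h.

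Several proteins of the machinery exist as paralogs that can replace each other in a complex. The ratio of their read counts within a library needs no scaling between libraries. It is not corrected for mRNA length, so the starting ratio of each pair is one of reads, not of molecules. At 0 h the deadenylases CNOT6 and CNOT6L had nearly equal read counts, with a log2 ratio of 0.24 (SD 0.15, n = 8 libraries). Per kilobase of mRNA they stood at 7.40 and 4.27 CPM per kb in siControl cells at 0 h. At 6 h the log2 ratio of reads was 2.36 (SD 0.33). CNOT6 reads thus went from 1.18 to 5.15 per CNOT6L read. CNOT7 reads, from the catalytic alternative to CNOT8, went from 2.562 to 8.001 per CNOT8 read, and DCP1A reads from 3.36 to 7.32 per DCP1B read. For each of these 3 pairs no 6 h library overlapped any 0 h library. The ratio of the nucleases DIS3 and DIS3L moved the other way, by −0.42 on the log2 scale, also without overlap. UPF3A to UPF3B moved by only −0.14, from 4.01 to 3.65 reads, and its time points overlapped. For each of the 5 pairs a two-sided exact permutation test within conditions gave p = 0.001543 (adjusted p = 0.001543 over 5 pairs), the smallest value the 1296 relabelings allow. CNOT7 has 2 pseudogene copies, UPF3A has 3 and CNOT6L has 1, and how reads shared with them were counted was not given in the sources used here.

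**Figure D3:**
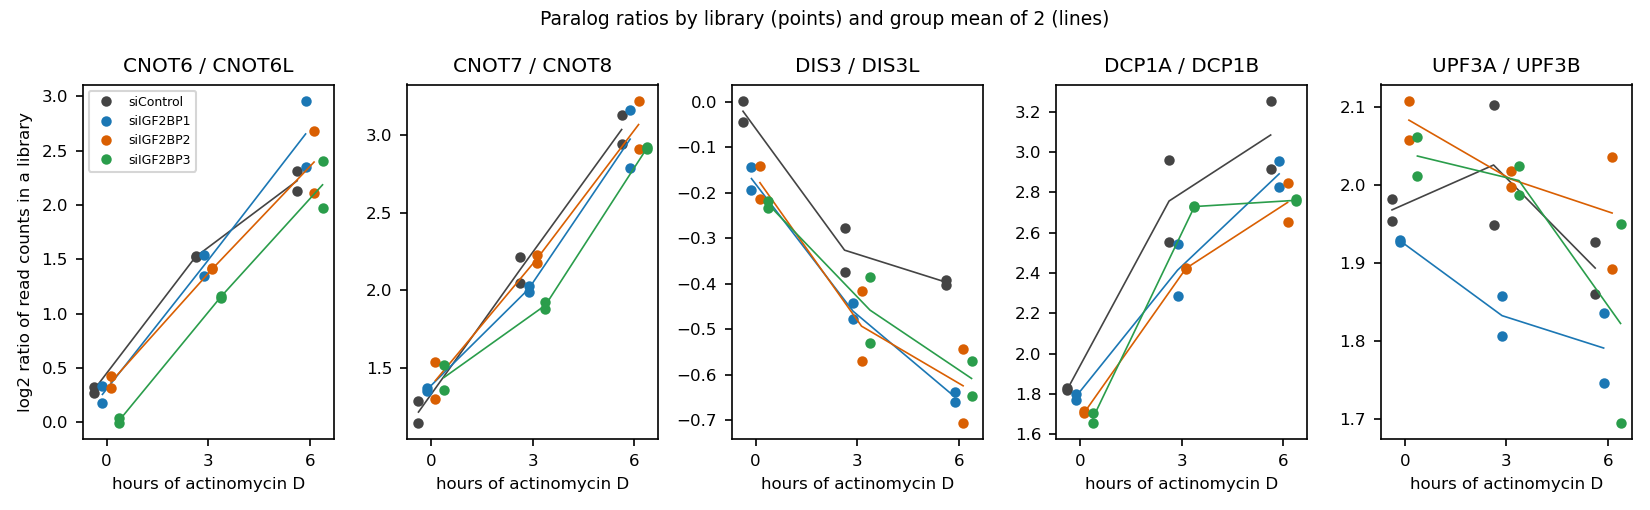
Log2 ratio of the read counts of 2 paralogs in each library, against hours of actinomycin D, for 5 pairs. Points are libraries, lines join the means of 2, and colours mark the siRNA. CNOT6/CNOT6L, CNOT7/CNOT8 and DCP1A/DCP1B rise in all 4 conditions, while UPF3A/UPF3B stays near its starting ratio (log2 2.004 at 0 h and 1.87 at 6 h).

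The 3′ untranslated regions of the members were searched on the transcript strand, overlapping matches included, for TGTANATA, the core bound by Pumilio proteins, which recruit the CCR4-NOT complex, and for the AU-rich motifs ATTTA and TATTTAT, of which each TATTTAT contains an ATTTA. TGTANATA occurred in 12 of 43 members (27.91%) and in 29.85% of the 11359 regions of all genes tested. TATTTAT occurred in 39.53% of members against 35.33%, and ATTTA in 81.4% against 72.75%. The fast deadenylase CNOT8 held 4 TGTANATA matches in 1353 nt, whereas its slower paralog CNOT7 held 2 in 5754 nt, CNOT6L 1 in 7044 nt and CNOT6 none in 4158 nt. The fastest members SMG8, DCP1B and CNOT4 held no TGTANATA, and DCP1B held none of the motifs searched. CNOT1 and UPF3A, both slower than the typical transcript, held 1 TGTANATA each. The 4 CNOT8 matches are shown first because CNOT8 is the fast member of a paralog pair and holds more matches than CNOT7 in a shorter region, followed by the EXOSC9 match and by the TATTTAT of SMG8, the fastest member, all on the plus strand of hg38 (GENCODE transcript models), 5′ to 3′, with the motif in capitals.
CNOT8, chr5:154875628-154875657: tgctctgaattTGTAAATAagtcttcccca
CNOT8, chr5:154875755-154875784: aagtagtaaaaTGTATATAactcttacctg
CNOT8, chr5:154875900-154875929: aggtaatgggtTGTAGATActgagtcttcc
CNOT8, chr5:154876722-154876751: tttaagatgctTGTAAATActatttatgtt
EXOSC9, chr4:121816864-121816893: agttgtatatcTGTATATAtaactattaaa
SMG8, chr17:59215162-59215190: tatattgttgaTATTTATtgtaaacgtga

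These matches begin 200, 327, 472 and 1294 bases after the stop codon in CNOT8, 19 bases in EXOSC9, whose region is 165 nt long, and 171 bases in SMG8, whose region is 228 nt long. Members with a TGTANATA had a median loss of −0.63 relative to the typical transcript and members without one of −0.10. The corresponding medians over all genes tested were −0.36 and +0.15. For TATTTAT the medians with and without were −0.42 and −0.16 in members and −0.27 and +0.15 in all genes. For ATTTA, present in 35 of the 43 members, the medians in members were −0.18 with and −0.51 without. In all genes they were in the other order, −0.11 and +0.32. The group of members without ATTTA is small. The Spearman correlation of the ATTTA count with relative loss was negative in both, −0.139 in members and −0.244 in all genes. Across the 43 members the Spearman correlation with relative loss was −0.40 for the AT content of the 3′ region, −0.13 for its length, 0.20 for the length of the coding sequence and 0.26 for G or C at the last codon position. Across 11359 genes the same values were −0.15, −0.25, −0.19 and 0.14. These are correlations across genes, which are not independent replicates, within 1 set of libraries, and the motif matches are descriptions of sequence, not of binding.

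Whether the knockdowns altered the levels of the machinery was asked over the whole time course, which uses 6 libraries per condition. Because the cells of a transfected plate were divided over the time course, these are not 6 separate transfections. The p-values therefore do not measure the spread between transfections, and the 3 times are not independent repeats. The same siControl libraries serve all 3 comparisons, which are therefore not independent of each other. With siIGF2BP1, 16 members (37.2%) were higher and 2 (4.65%) lower than in siControl, where 21.2% and 18.5% of all genes tested were. With siIGF2BP2, 11 members were higher and 6 lower, against 17.1% and 16.7% of all genes. With siIGF2BP3, 14 were higher and 3 lower, against 16.2% and 16%. ERCC scaling moved the median of all genes up, to 0.06, 0.15 and 0.18. It gave 17 members higher and 0 lower, 28 and 1, and 36 and 0, so the split depended on the scaling. Shares of all genes called under ERCC scaling are not given here, so these counts do not set the members apart from other genes. Most differences were small, and those of at least 0.3 on the log2 scale that passed the test were in DCP2 and XRN1.

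**Figure D4:**
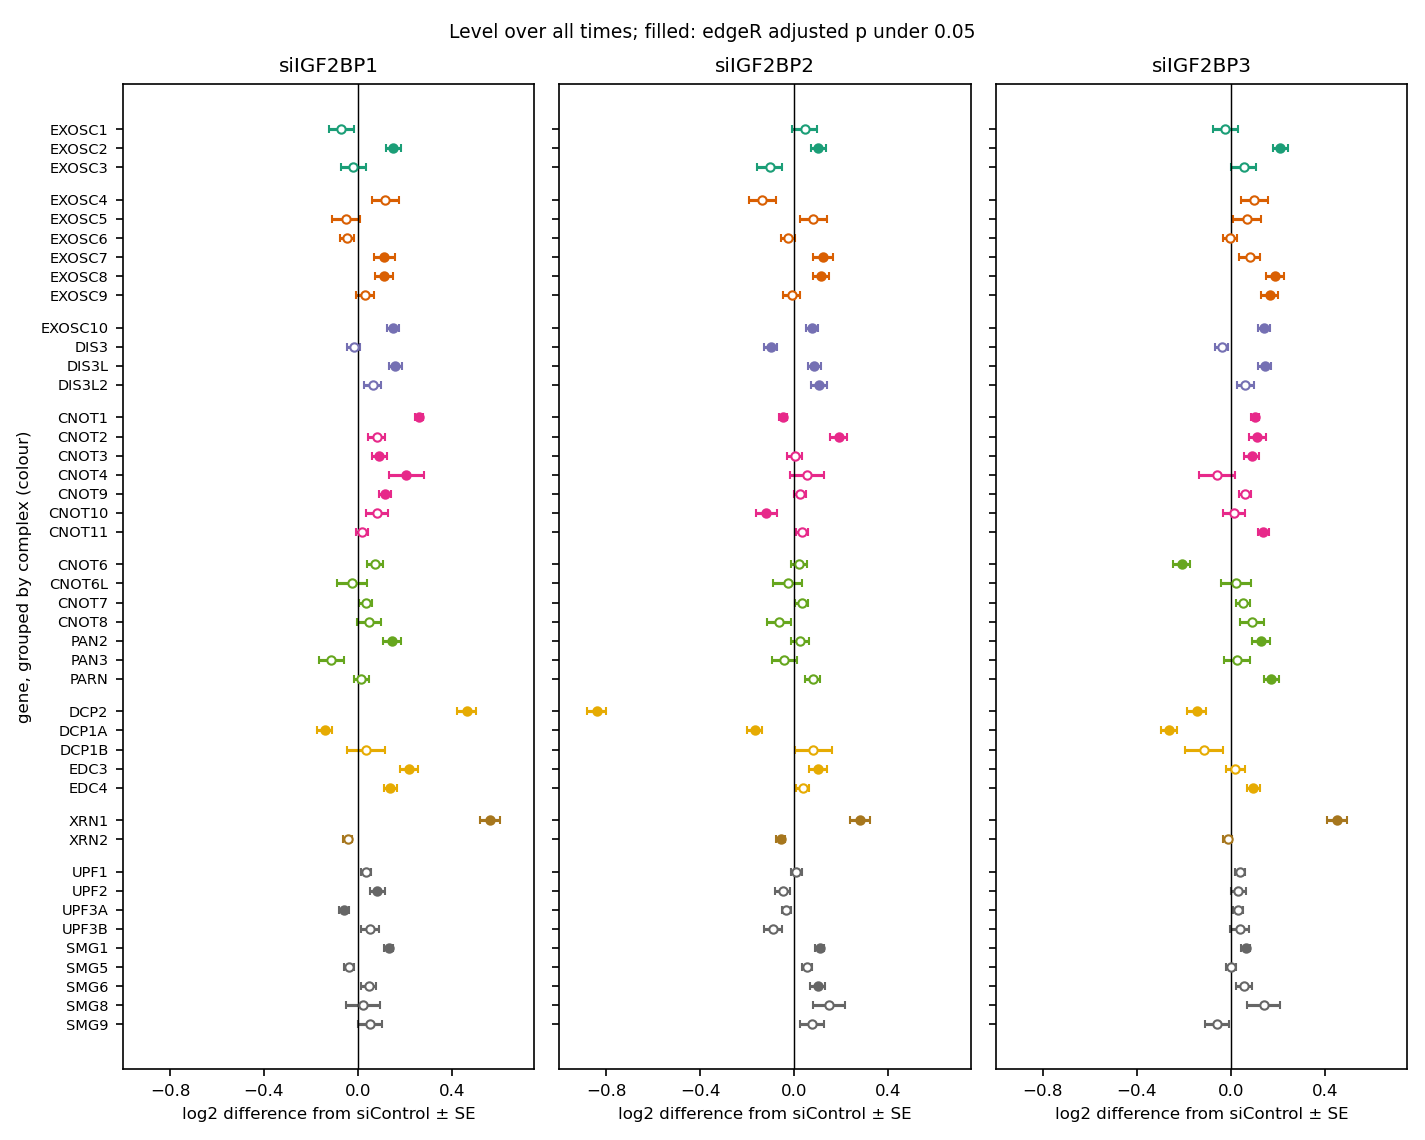
Log2 difference in level from siControl over all time points for the 43 mRNAs in each knockdown. Bars are standard errors, colours mark the complex, and filled points passed an edgeR adjusted p of 0.05. DCP2 stands apart, at 0.46 with siIGF2BP1 and −0.84 with siIGF2BP2, and XRN1 lies to the right in all 3 panels.

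DCP2, the enzyme that removes the cap (chr5:112976702-113022195, plus strand of hg38), was the member that differed most between the siRNAs. In siControl its level was 47.5 and 43.95 CPM at 0 h, 37.6 and 39.9 at 3 h, and 35.1 and 42.3 at 6 h. With siIGF2BP1 it was 61.6 and 59.1, 59.2 and 56.2, and 49.4 and 53.2 CPM. With siIGF2BP2 it was 28.2 and 26.4, 21.5 and 21.1, and 21.0 and 19.9 CPM. At all 3 times both siIGF2BP1 libraries lay above both controls and both siIGF2BP2 libraries below them. The log2 difference was +0.46 (SE 0.04, edgeR adjusted p = 2.394e-12) with siIGF2BP1 and −0.84 (SE 0.04, edgeR adjusted p = 3.563e-19) with siIGF2BP2. Both calls held under all 17 alternatives. With siIGF2BP3 the levels were 39.6 and 43.7, 34.8 and 36.2, and 33.1 and 35.8 CPM, below both controls at 2 of 3 times. That difference of −0.14 (SE 0.04) was lost under ERCC scaling, which gave +0.04.

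XRN1 (chr3:142306607-142448062, minus strand of hg38) was higher in all 3 knockdowns. Its siControl level was 24.8 and 24.7 CPM at 0 h, 19.1 and 18.5 at 3 h, and 15.2 and 16.7 at 6 h. With siIGF2BP1 it was 33.4 and 33.2, 29.3 and 26.9, and 25.6 and 25.2 CPM. With siIGF2BP2 it was 27.6 and 26.7, 21.7 and 23.96, and 22.0 and 20.6 CPM, and with siIGF2BP3 it was 30.5 and 33.1, 26.1 and 25.7, and 22.2 and 24.02 CPM. In each knockdown both libraries lay above both controls at all 3 times. The log2 differences were +0.56, +0.28 and +0.45 (SE 0.04 each), and each held under all 17 alternatives.

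CNOT1, which holds the CCR4-NOT complex together, measured 646.8 and 632.6 CPM at 0 h in siControl, 685.4 and 687.3 at 3 h, and 685.2 and 743.7 at 6 h. With siIGF2BP1 it measured 723.3 and 726.2, 824.5 and 830.4, and 903.0 and 887.9 CPM, above both controls at all 3 times. The difference was +0.26 (SE 0.02) with siIGF2BP1 and +0.10 (SE 0.02) with siIGF2BP3, and both held under all 17 alternatives. With siIGF2BP2 CNOT1 was lower by the test (−0.05, SE 0.02), a call that held in 8 of 17 alternatives and turned to +0.09 under ERCC scaling. DCP1A went the other way, being lower in all 3 knockdowns (−0.14, −0.17 and −0.26), in each case not called under ERCC scaling (−0.08, −0.03 and −0.08). With siIGF2BP3 its level was 55.2 and 58.0 CPM at 0 h, 28.8 and 28.1 at 3 h, and 18.5 and 18.2 at 6 h, against 62.1 and 64.1, 33.4 and 34.9, and 24.3 and 23.1 in siControl, below both controls at all 3 times.

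**Figure D5:**
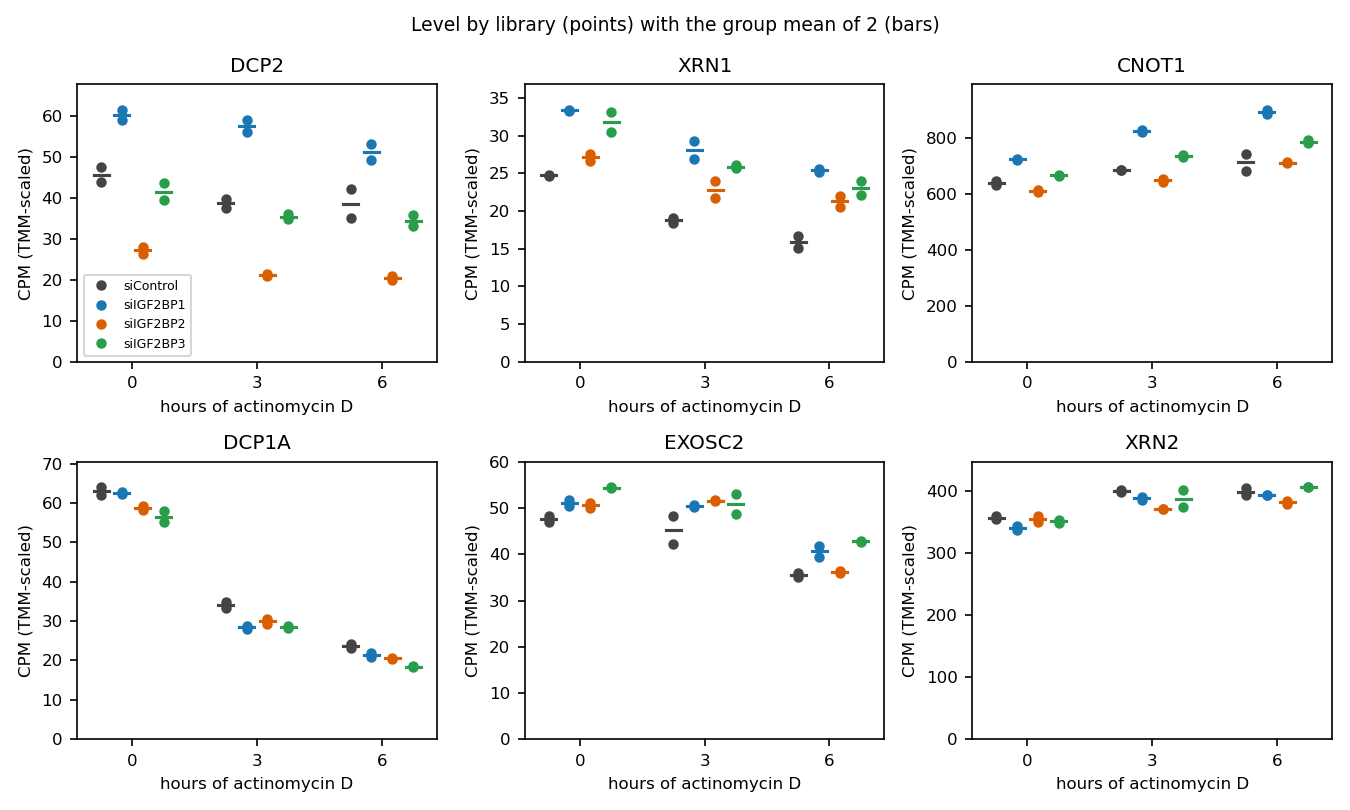
TMM-scaled CPM of DCP2, XRN1, CNOT1, DCP1A, EXOSC2 and XRN2 in all 24 libraries, against hours of actinomycin D. Points are libraries, bars are means of 2, colours mark the siRNA, and each vertical axis starts at 0. DCP2 is highest with siIGF2BP1 (61.6 and 59.1 CPM at 0 h) and lowest with siIGF2BP2 (28.2 and 26.4), and XRN2 differs little between siRNAs.

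EXOSC2 was higher in all 3 knockdowns, by 0.15 with siIGF2BP1, 0.10 with siIGF2BP2 and 0.21 with siIGF2BP3 (SE 0.03 each). In siControl it measured 48.4 and 47.0 CPM at 0 h, 48.3 and 42.3 at 3 h, and 35.9 and 35.0 at 6 h. With siIGF2BP3 it measured 54.6 and 54.3, 48.8 and 53.1, and 42.95 and 42.8 CPM, above both controls at all 3 times. The siIGF2BP1 and siIGF2BP3 calls held under all 17 alternatives and the siIGF2BP2 call in 15. XRN2, examined by the study together with EXOSC2, did not pass the test with siIGF2BP1 (−0.04) or siIGF2BP3 (−0.01), and was lower with siIGF2BP2 (−0.06, edgeR adjusted p = 0.01054). Under ERCC scaling the XRN2 values were +0.08 with siIGF2BP2 and +0.17 with siIGF2BP3. EXOSC3 and EXOSC4 did not pass the test in any knockdown over all times, and EXOSC7 was higher with siIGF2BP1 (+0.11) and siIGF2BP2 (+0.12).

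Of the remaining members, EXOSC8, EXOSC10, the cytoplasmic nuclease DIS3L and SMG1 were higher in all 3 knockdowns, by 0.06 to 0.19, of which EXOSC8, EXOSC10 and SMG1 were named after their values were seen. The share of all genes called in the same direction in all 3 knockdowns was not counted. This also holds for XRN1, EXOSC2 and DCP1A above. CNOT6 was lower with siIGF2BP3 (−0.21), at 40.4 and 41.0 CPM at 0 h against 45.9 and 46.1 in siControl, below both controls at all 3 times, although ERCC scaling gave −0.03. EDC3 was higher with siIGF2BP1 (+0.22), above both controls at all 3 times, and with siIGF2BP2 (+0.10). Of the 7 CCR4-NOT scaffold and module subunits, 4 were higher with siIGF2BP1 and 4 with siIGF2BP3, while with siIGF2BP2 1 was higher and 2 lower. Of the 9 nonsense-mediated decay factors, 2 were higher and 1 lower with siIGF2BP1, 2 higher with siIGF2BP2 and 1 higher with siIGF2BP3. Among all genes the shares higher and lower were 21.2% and 18.5%, 17.1% and 16.7%, and 16.2% and 16% in the 3 knockdowns.

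At 0 h alone, before transcription was blocked, fewer members passed the test. With siIGF2BP1 5 were higher and 0 lower, against 9.43% and 6.5% of all genes, and these were XRN1 (+0.43), DCP2 (+0.40), EDC4 (+0.20), CNOT1 (+0.18) and SMG1 (+0.09). With siIGF2BP2 PARN was higher (+0.16) and DCP2 lower (−0.74, SE 0.07, edgeR adjusted p = 1.161e-10), against 6.65% and 5.47% of all genes. The PARN call held in 3 of 10 alternatives and in no fit that left out 1 library. With siIGF2BP3 7 were higher and 1 lower, against 4.93% and 4.47%. The higher ones were XRN1 (+0.36), EXOSC2 (+0.19), DIS3L (+0.18), PARN (+0.18), CNOT11 (+0.15), EXOSC10 (+0.14) and UPF3A (+0.11), and DCP1A was lower (−0.16). Each group holds 2 libraries here, and leaving out 1 library left 3 to 4, 1 to 2 and 1 to 5 members called. Under ERCC scaling 2, 1 and 1 members were called, and the shares of all genes called under that scaling are not given here.

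The knockdowns were also compared directly, without the siControl libraries. Between siIGF2BP1 and siIGF2BP2, 15 members were higher with siIGF2BP1 and 2 lower, where 22.4% and 20.6% of all genes were. DCP2 differed by 1.30 (SE 0.04, edgeR adjusted p = 1.885e-25), CNOT1 by 0.31 (SE 0.02) and XRN1 by 0.28 (SE 0.04). Between siIGF2BP1 and siIGF2BP3, 8 members were higher with siIGF2BP1 and 5 lower (20.3% and 17.6% of all genes), with DCP2 differing by 0.61, CNOT6 by 0.28 and CNOT4 by 0.26. Between siIGF2BP2 and siIGF2BP3, 3 members were higher with siIGF2BP2 and 16 lower (15.3% and 15.1% of all genes), among them DCP2 (−0.70), EXOSC4 (−0.24), EXOSC9 (−0.18) and XRN1 (−0.18). Under ERCC scaling these splits were 3 higher and 6 lower, 2 and 19, and 1 and 11. The shares of all genes called under that scaling are not given here, so these splits do not set the members apart from other genes. Leaving out 1 of the 6 h libraries moved the last comparison from 19 calls to 11 (siIGF2BP2 replicate 1) or 10 (siIGF2BP3 replicate 2).

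Finally, the slopes themselves were compared between each knockdown and siControl under ERCC scaling, to ask whether a knockdown altered the decay of the decay machinery. No member passed edgeR's test in any knockdown, where 0.0152%, 0.0% and 0.0228% of all genes did. Without adjustment, 12, 4 and 11 of the 43 members had a p under 0.05, as did 1436, 896 and 2113 of the 13136 genes tested. DESeq2 also called 0 members, with 10, 3 and 9 at that unadjusted level, and its counts over all genes are not given here. The members' median slope difference was 0.25 with siIGF2BP1, 0.18 with siIGF2BP2 and 0.22 with siIGF2BP3, against 0.19, 0.17 and 0.22 for all genes, and under TMM scaling the members' medians were 0.05, −0.01 and −0.01. XRN1 had a slope difference of 0.48 (SE 0.16, edgeR adjusted p = 0.6426) with siIGF2BP2 and EXOSC4 of 0.62 (SE 0.20, edgeR adjusted p = 0.277) with siIGF2BP3, so that differences of this size did not pass after adjustment over 13136 genes. The ERCC reads per 1000000 gene reads, which set this scale, were 1980.8 and 2125.2 in siControl at 6 h and 1623.4 to 1868.6 in the knockdowns, and their part in the shift of all genes was not tested.

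Half-lifetimes were also computed from first-order decay, the equation of the study, though from ERCC read totals and the mean of the 3 h and 6 h rates. The median over the members was 4.77 h in siControl, 6.26 h with siIGF2BP1, 5.55 h with siIGF2BP2 and 5.98 h with siIGF2BP3, against 6.22, 6.91, 6.51 and 6.98 h for all genes with an estimate. Over the 8 choices of 1 library per time point, the SD of the members' median was 0.623, 0.374, 0.252 and 0.559 h. Of 42 members with an estimate in both conditions, 39 were longer than in siControl with siIGF2BP1, 27 with siIGF2BP2 and 35 with siIGF2BP3, where 81.56%, 62.75% and 84.67% of all genes were. In siControl the half-lifetimes ran from 1.01 h for SMG8, 1.43 h for CNOT4, 1.495 h for DCP1B and 1.88 h for CNOT6L to 9.29 h for XRN2 and 11.8 h for EXOSC7, and were longer still for EDC4 (12.9 h), UPF3B (20.1 h), UPF3A (21.5 h), SMG5 (29.8 h), EXOSC5 (38.6 h) and PAN2 (65.7 h). These long values lie far beyond the 6 h observed and are extrapolations, and for PAN2, SMG5 and EXOSC5 only 6, 7 and 4 of the 8 choices of libraries gave a fall.

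Beyond the 43, 48 other factors of the same pathways (SKI and nuclear exosome cofactors, LSM proteins, poly(A)-binding and BTG/TOB proteins, exon junction and release factors among them) were counted. Over all times 17 were higher and 5 lower with siIGF2BP1, 14 and 8 with siIGF2BP2, and 18 and 3 with siIGF2BP3, where the shares of all genes were 21.2% and 18.5%, 17.1% and 16.7%, and 16.2% and 16%. PABPC4, a cytoplasmic poly(A)-binding protein, was higher in all 3 knockdowns, 1.45-fold, 1.65-fold and 1.53-fold. Here too the 3 comparisons share the siControl libraries, and the share of all genes higher in all 3 was not counted. Results under ERCC scaling are not given for the other factors. MPHOSPH6, a cofactor of the nuclear exosome, was at 0.598 of its siControl level with siIGF2BP2, and BTG3, an anti-proliferative protein that binds CCR4-NOT deadenylases, at 0.668 with siIGF2BP3. Relative to the typical transcript 21 of the 48 were lost slower and 21 faster (42.4% and 44.6% of all genes), with a median of 0.05 against −0.28 for the 43 members.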

How the data were processed

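The authors trimmed single-end reads of 100 nt from stranded polyadenylated-RNA libraries with Trimmomatic 0.39, aligned them to hg38 with HISAT2 2.1.0 and counted them per GENCODE gene with HTSeq, whose overlap and strand settings were not given in the sources used here. The deposited values are raw read counts, not normalized. Per the methods, the authors later converted CPM to attomoles with ERCC RNA, and here the sum of ERCC reads was used instead.

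The 5 summary categories (13.551% to 17.064% of a library) and 45 pseudoautosomal Y copies were left out, and 58207 identifiers matched a symbol while 469 did not. Genes reaching a CPM of 1 in 2 or more libraries were tested with edgeR 4.0.16 in R 4.3.3 (quasi-likelihood, two-sided, Benjamini-Hochberg over 13136 genes, threshold 0.05) on all 24 libraries. Levels and the late against early difference used 12 group means with TMM scaling (12 residual degrees of freedom). Loss used an intercept and slope per condition (16 degrees), with ERCC or TMM scaling, given as log2 change over 6 h. Each standard error was derived from the estimate and its F value. Half-lifetime was ln2/K, with K the mean of the 3 h and 6 h first-order rates. Scripts were tested on simulated data. The simulated slope differences used TMM scaling and held no spike-in noise, so they do not measure power under ERCC scaling. Counting errors cover counting only, since PCR duplicates could not be removed. The alternatives were DESeq2 1.42.0, ERCC or TMM scaling, other filters, only the compared libraries, a replicate block, other half-lifetime formulas and leaving out each library. Gene positions and 3′ regions are from a later GENCODE release of GRCh38 (hg38).

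The members and lists were chosen with earlier results of these data known. Named with values were EXOSC2, EXOSC3, EXOSC4, EXOSC7 and XRN2, the 5 paralog pairs, the 5 fastest and 5 slowest members, members whose level differed by at least 0.3, and the 12 members whose largest difference between knockdowns was greatest, each by that difference. Other factors were named where their level differed by at least 0.5. The samples were treated as unpaired, since no label ties same-numbered libraries together and, of 66 pairs of groups, 4 had a correlation of same-numbered deviations over 0.1 (−0.042 to 0.181).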

Additional observations from a re-analysis of the deposited data

Results flagged for a closer look

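Several members differed between the knockdowns by a direct test over all times (edgeR quasi-likelihood, TMM scaling), each knockdown being compared with the next without siControl. The difference between siIGF2BP1 and siIGF2BP2 was 1.30 on the log2 scale for DCP2 (SE 0.04, adjusted p = 1.885e-25), 0.31 for CNOT1, 0.28 for XRN1, 0.25 for EXOSC4 and 0.20 for CNOT10, a module subunit of CCR4-NOT. The difference between siIGF2BP1 and siIGF2BP3 was 0.28 for CNOT6, 0.26 for CNOT4, 0.20 for EDC3 and −0.16 for PARN. The difference between siIGF2BP2 and siIGF2BP3 was −0.18 for EXOSC9, −0.16 for EXOSC3 and −0.16 for CNOT8. The calls for DCP2, CNOT1, XRN1, CNOT6, EXOSC9 and PARN held under all 17 alternatives, those for CNOT4, EXOSC4, CNOT10 and EDC3 under 16, that for CNOT8 under 14 and that for EXOSC3 under 12. Differences between samples within a group were not screened, since each group has 2.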

How the results depend on the processing

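Under ERCC scaling 18 members (30 before) were called for late against early loss, 2, 1 and 1 at 0 h (5, 2 and 8 before, for siIGF2BP1, siIGF2BP2 and siIGF2BP3), 29 and 36 over all times with siIGF2BP2 and siIGF2BP3 (17 each before), and 9, 21 and 12 between siIGF2BP1 and siIGF2BP2, siIGF2BP1 and siIGF2BP3, and siIGF2BP2 and siIGF2BP3 (17, 13 and 19 before). Signs turned under ERCC scaling for XRN2 in late against early loss (0.0221), for XRN1 between siIGF2BP1 and siIGF2BP3 (−0.0106), over all times with siIGF2BP2 for CNOT1 (0.0912), CNOT10 (0.0209), DIS3 (0.0379), EXOSC9 (0.13) and XRN2 (0.0794), and with siIGF2BP3 for DCP2 (0.036), DIS3 (0.14) and XRN2 (0.17). Relative loss changes its reference with the scaling by construction: under ERCC scaling it was −0.48 for CNOT1, −0.70 for CNOT7, −0.71 for DIS3L, −0.22 for EXOSC5, −0.39 for EXOSC7, −0.58 for PARN, −0.10 for SMG5, −0.29 for UPF3A, −0.15 for UPF3B and −0.54 for XRN2, and under TMM scaling the siControl slope was 0.16 for CNOT1, 0.0307 for CNOT7, 0.62 for EXOSC5, 0.31 for EXOSC7, 0.71 for PAN2, 0.10 for PARN, 0.61 for SMG5, 0.45 for UPF3A, 0.53 for UPF3B and 0.16 for XRN2.

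At 0 h with siIGF2BP2, DESeq2 called 1 member, no filter 1 and only the 4 libraries compared 9. With no filter the count was 4 at 0 h with siIGF2BP3, 9 over all times with siIGF2BP2 and 12 between siIGF2BP2 and siIGF2BP3. Slopes from 0 h and 6 h libraries gave 2 calls with siIGF2BP3. UPF3A to UPF3B at 3 h differed from 0 h by −0.0362 (exact permutation p = 0.199). Median half-lifetime from 0 h and 6 h alone was 6.67 h with siIGF2BP1 and 5.94 h with siIGF2BP2. A line through the equally spaced times gives the same values by construction. Leaving out 1 library gave 3 to 4, 1 to 2 and 1 to 5 calls at 0 h, 10 to 23 between siIGF2BP2 and siIGF2BP3, 0 to 2 for the siIGF2BP3 slope (2 without siControl 0 h replicate 2), and median half-lifetimes of 4.32 to 5.68 h in siControl and 5.79 to 6.27 h with siIGF2BP1. The cause of these changes was not tested. Shares of all genes called are not given for any alternative in this section, so its counts describe the processing and do not set the members apart.

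With the replicate number as a block, members called were 5, 3 and 8 at 0 h, 19, 17 and 17 over all times, 17, 13 and 20 between knockdowns, 30 for late against early loss, 37 for relative loss, 41 for siControl loss and 0 for each slope difference. Whether same-numbered libraries share a transfection is not given in the sources used here, and 2 of 12 pairs of times within a condition had correlated deviations over 0.1 (−0.012 to 0.142). Over all alternatives, 5861 of 6174 values of the named members counted as unchanged. A turned sign also counted as unchanged where neither fit passed the test.

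With 2 libraries a group, small differences at 0 h rest on single libraries, and slope differences rest on the ERCC totals of single libraries. Counts of EXOSC3, CNOT4, CNOT6L, CNOT7, DIS3L2, SMG1 and UPF3A can include reads of copies. Half-lifetimes beyond 6 h are extrapolated.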
